A study of Mus musculus with 6 samples.

Results

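Heat shock proteins and their DnaJ co-chaperones were examined in primary somatosensory (S1) cortex of mice with and without whisker stimulation (WS). The rule for members takes gene symbols and uses no measured value. They were the listed Hspa, Hsph1, Hsp90, Hspb, Hspd1, Hspe1, Dnaja, Dnajb and Dnajc genes together with the heat shock factors Hsf1 and Hsf2, 68 of the 14824 genes in the deposited table. The symbols gave 13 Hspa genes, 1 Hsph gene (Hsph1, an Hsp110), 3 Hsp90 genes, 7 small heat shock protein genes (Hspb) and 2 mitochondrial chaperonin genes. They also gave 4 Dnaja, 11 Dnajb and 25 Dnajc genes, and 2 heat shock factors. The Hspa symbol stands for Hsp70, with Hspa4 of the Hsp110 type among these genes. The comparison asked whether the stress-inducible members and the constitutive members differed in level between stimulated and non-stimulated cortex.

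Bulk RNA-seq was performed on total RNA of S1 cortex from wild-type male mice, strain labelled C57B6, at postnatal day 21, with 3 WS libraries and 3 non-stimulated (NS) libraries, which the labels title NW control. In the WS protocol of the study the pups were gently restrained each day for 8 days while the whiskers of 1 side were brushed for 15 minutes, and tissue was taken 90 minutes after the last session. The stimulation scheme of the study uses the unstimulated barrel cortex of the opposite hemisphere as NS, and legends on the RNA-seq give n = 3 mice, without stating whether NS and WS came from the same 3 mice. The labels do not tie libraries to mice. RNA was accepted at an integrity number above 2, and the samples are of whole tissue with neurons, glia and vessel cells together.

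Heat shock proteins are molecular chaperones that bind unfolded or partly folded proteins. Hsp70 proteins work in cycles of ATP use that are started by DnaJ (Hsp40) proteins, whose J domain stimulates the Hsp70 ATPase, and Hsp110 proteins such as Hsph1 act as their nucleotide exchange factors. Hsp90 proteins take over clients such as kinases and steroid receptors, and small heat shock proteins hold unfolding proteins without using ATP. Some of these genes are transcribed at a high level under stress by heat shock factor 1, which binds heat shock elements in their promoters, while others are transcribed at all times, and those of the endoplasmic reticulum (ER) are raised by the unfolded protein response. Neurons also use a DnaJ protein to strip clathrin from synaptic vesicles, together with the constitutive Hsp70 Hspa8.

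Each library held between 15660395 and 17276168 counts on listed genes, and between 0.959% and 1.016% of them fell on the members. Library counts were recovered from the mean, SD and z-scores that the deposited table gives for a gene. Levels are given as CPM, which are counts divided by the TMM-normalized library size, and differences as the log2 fold change of WS against NS with its standard error (SE), n = 3 per group, from the edgeR quasi-likelihood fit over all genes. Of the 68 members, 67 passed the filter on low counts, and Hspb7, which had 5, 5 and 8 counts in NS replicates 1 to 3 and 4, 3 and 9 in the WS replicates, was not tested. The labels do not say which samples share a mouse, so p-values measure only the spread between these samples. Marker genes of neurons, astrocytes, microglia, endothelial cells and pericytes were all above 0 in every library. The summed level of 5 choroid plexus markers ranged from 31.3 to 74.7 CPM in NS and from 9.54 to 86.1 CPM in WS.

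The Hspa1a and Hspa1b genes, the classical stress-inducible Hsp70 genes, are near-identical neighbours on chromosome 17, and their sequences are shown because they bear on how far the values of each gene can be read. The last 90 coding bases before the stop codon, from GENCODE M21 on GRCm38, lie at chr17:34970003-34970092 for Hspa1a and at chr17:34957082-34957171 for Hspa1b, both on the minus strand. They are printed 5′ to 3′ with the bases that differ or are absent from the other gene in capitals.
Hspa1a: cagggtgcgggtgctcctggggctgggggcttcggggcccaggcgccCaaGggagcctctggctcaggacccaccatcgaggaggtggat
Hspa1b: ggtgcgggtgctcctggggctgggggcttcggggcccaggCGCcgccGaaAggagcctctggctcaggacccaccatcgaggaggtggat
Over the whole coding sequence of 1923 bases in Hspa1a and 1926 bases in Hspa1b, 99.4% of the aligned positions were identical, with 8 mismatches, 3 gap positions and a longest identical run of 638 bases. The neighbouring testis-type gene Hspa1l was 82.7% identical to Hspa1a, with a longest identical run of 233 bases. The 250 bases before the start of Hspa1a (chr17:34972157-34972406) and Hspa1b (chr17:34959239-34959488), both on the minus strand in RefSeq on GRCm38.p6, differed at 3 bases, which are in capitals.
Hspa1a: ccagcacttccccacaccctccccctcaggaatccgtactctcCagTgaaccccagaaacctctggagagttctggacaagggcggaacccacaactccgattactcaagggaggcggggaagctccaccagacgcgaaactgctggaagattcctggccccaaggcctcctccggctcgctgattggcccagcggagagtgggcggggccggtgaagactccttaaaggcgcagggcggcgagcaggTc
Hspa1b: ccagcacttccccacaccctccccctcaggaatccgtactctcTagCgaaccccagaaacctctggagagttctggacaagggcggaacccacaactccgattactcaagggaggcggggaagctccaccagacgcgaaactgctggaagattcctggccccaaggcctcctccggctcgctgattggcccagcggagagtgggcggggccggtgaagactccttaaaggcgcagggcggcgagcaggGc

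The counts computed back for each of these 3 genes were fractional in most libraries, but their sums were whole in all 6. Hspa1a held 135.92, 178.51 and 116.53 estimated counts in NS replicates 1, 2 and 3, and 200.37, 160.9 and 148.12 in WS replicates 1, 2 and 3. Together with Hspa1b and Hspa1l the sums came to 468, 484 and 425 in NS and to 587, 464 and 424 in WS, each within 0.028 counts of a whole number. The reads of the 3 genes were therefore divided among them in the deposited values, and the single-gene values of Hspa1a, Hspa1b and Hspa1l are uncertain while their sum is free of that division. Of the 58 members whose counts could be computed back with an error under 0.1 count, 13 (22.4%) had counts that were not whole within that error, against 1937 of 13418 such genes (14.4%) in the table. Dnajc1, Hspa12a and Dnajc30 each gave whole sums with a gene that overlaps them on the opposite strand, Mllt10, Eno4 and Bud23. The other 7 were Dnajb6, Dnajb14, Dnajc14, Dnajc19, Dnajc27, Hspb2 and Hspb11, for which no partner gene is given here, and the values of all 13 carry the same uncertainty.

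**Figure D1:**
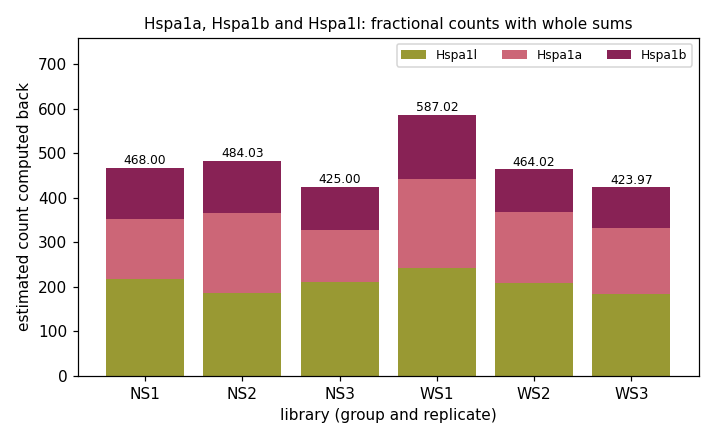
Estimated counts of Hspa1l, Hspa1a and Hspa1b, stacked in each of the 6 libraries (horizontal axis), with the sum of the 3 genes above each bar (vertical axis, counts). The sums lie within 0.028 counts of whole numbers in all 6 libraries, the highest at 587 in WS replicate 1, while the counts of each gene are fractional in most libraries.

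No member passed the test of WS against NS. None of the 67 tested members had an adjusted p under 0.05, either higher in WS, where 4 genes of 13747 (0.0291%) were called with a log2 fold change above 1, or lower, where 0 (0%) were called. At an unadjusted p of 0.05 the members also gave 0 higher and 0 lower, against 0.866% of all genes higher and 0.327% lower, and DESeq2 gave 0 at either threshold too. The smallest p was that of Hspa2 (unadjusted p = 0.0707, edgeR adjusted p = 0.99984), and every other member had an adjusted p of 0.99984 in edgeR as well. The exact permutation test over libraries cannot go below 0.1 with 3 against 3, so single genes were not called from it. In bulk tissue, fewer cells of a type and less RNA per cell cannot be told apart in any of these values.

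Most differences were small and had narrow intervals. Over the members the log2 fold change had its median at -0.01, with 27 above 0 and 40 below, beside 0.01 over all genes tested, with 7289 above 0 and 6458 below. The 95% interval of the log2 fold change lay within 0.5 of 0 in 59 of the 67 members. The 8 members whose intervals reached past 0.5 on either side were Dnajb13, Dnajb3, Dnajc25, Dnajc4, Hspa1a, Hspb11, Hspb2 and Hspb3, named here for that reach. For the 33 members with a mean of at least 50 CPM, the log2 fold change was at most 0.15 in either direction and the SE at most 0.12. Levels of all 3 WS libraries above all 3 NS libraries were found in 3 members (4.48%, against 3.11% of all genes), and below them in 6 (8.96%, against 3.16% of all genes). The first were Dnajb2, Dnajc1 and Dnajc9 and the second Dnajb6, Dnajc15, Hspa12a, Hspa4, Hspa8 and Hspb11, of which Dnajc1, Dnajb6, Hspa12a and Hspb11 had fractional counts. Between libraries of the same replicate number, WS was higher in all 3 pairs for 7 members (10.4%, against 9.82% of all genes), Dnajc4 among them, and lower in all 3 for 12 (17.9%, against 8.57% of all genes), Hspa2 and Hsph1 among them. With the replicate number as a block these 3 genes also had an adjusted p of 0.99985 in edgeR.

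**Figure D2:**
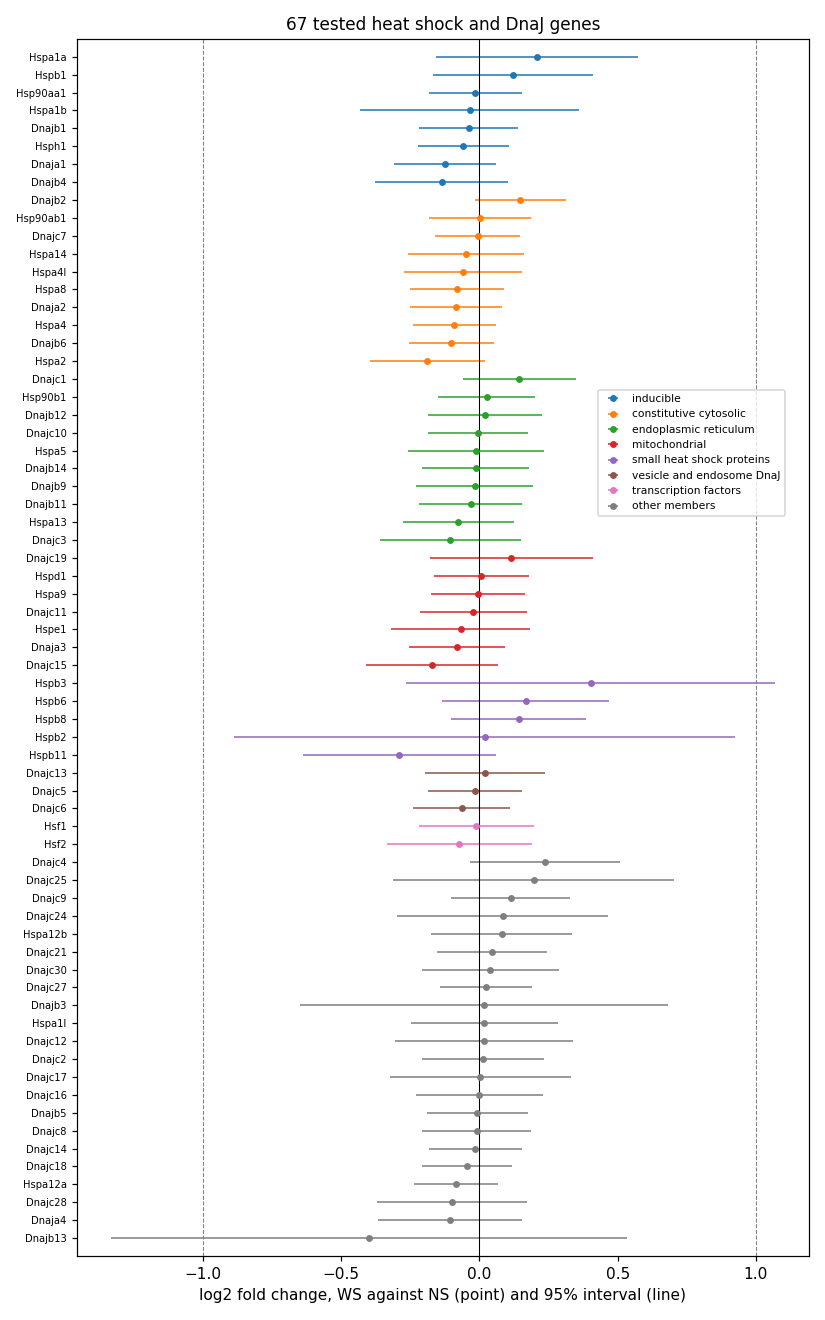
Log2 fold change of WS against NS (horizontal axis, points) with its 95% interval (lines) for the 67 tested members, coloured by list, with Hspb1 drawn among the inducible members. All intervals include 0, and 59 of 67 lie within 0.5 of it on either side. Dashed lines mark a log2 fold change of 1 in each direction.

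The stress-inducible members are those that heat shock factor 1 raises most in stressed cells. Of the 8 on this list, 2 had a log2 fold change above 0 and 6 below, none passed the test, and in none did the NS and WS libraries separate. Their median was -0.04, against -0.01 for the 59 tested members not on the list, and the values ran from -0.14 to 0.21.

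Hspa1a was at 8.57, 11.2 and 7.27 CPM in NS replicates 1, 2 and 3 and at 11.8, 9.96 and 9.35 CPM in WS. The groups overlapped through NS replicate 2, and the log2 fold change was 0.21 (SE 0.17). Hspa1b was at 7.25, 7.43 and 6.03 CPM in NS and at 8.53, 5.88 and 5.75 CPM in WS, where 1 WS library was the highest of the 6 and the other two the lowest (log2 fold change -0.04, SE 0.18). The sum of Hspa1a, Hspa1b and Hspa1l, which is free of the division of reads, was at 29.5, 30.2 and 26.4 CPM in NS and at 34.8, 28.7 and 26.8 CPM in WS. Only WS replicate 1 stood above the NS range, and the log2 fold change of the sum was 0.07 (SE 0.11, edgeR adjusted p = 0.99985).

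Hsp90aa1, the inducible cytosolic Hsp90, was at 1206, 1136 and 1103 CPM in NS and at 1090.2, 1162 and 1156 CPM in WS (log2 fold change -0.02, SE 0.08, 95% interval -0.18 to 0.15). Hsph1, the Hsp110 exchange factor of Hsp70, was at 287, 273 and 273 CPM in NS and at 281, 248 and 269.6 CPM in WS (log2 fold change -0.06, SE 0.08). Both genes had overlapping groups. Dnajb1, the DnaJ protein that works with Hsp70 in taking aggregates apart, was at 69.3, 64.0 and 70.1 CPM in NS and at 69.8, 62.6 and 65.7 CPM in WS (log2 fold change -0.04, SE 0.08).

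Hspb1 (Hsp27), a small heat shock protein of astrocytes and vessel cells under stress, was at 8.83, 9.99 and 11.2 CPM in NS and at 11.5, 9.84 and 11.4 CPM in WS, with a log2 fold change of 0.12 (SE 0.13). Dnajb4 was at 68.5, 53.7 and 61.9 CPM in NS and at 49.3, 57.2 and 61.1 CPM in WS (log2 fold change -0.14, SE 0.11). Dnaja1, a farnesylated partner of Hspa8, was at 268.7, 241.5 and 271 CPM in NS and at 217, 249.9 and 250.3 CPM in WS (log2 fold change -0.12, SE 0.08). In Dnajb4 and Dnaja1 the lowest of the 6 libraries was WS replicate 1, and the other two WS libraries lay inside the NS range.

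The 2 heat shock factors had log2 fold changes close to 0. Hsf1, the main factor of the heat shock response, was at 32.7, 33.5 and 34.0 CPM in NS and at 35.8, 33.5 and 30.1 CPM in WS (log2 fold change -0.01, SE 0.10). Hsf2 was at 22.3, 21.7 and 21.2 CPM in NS and at 16.9, 22.0 and 23.1 CPM in WS (log2 fold change -0.07, SE 0.12). For both genes the WS libraries held the highest and the lowest of the 6 values, so the WS spread enclosed the NS range.

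**Figure D3:**
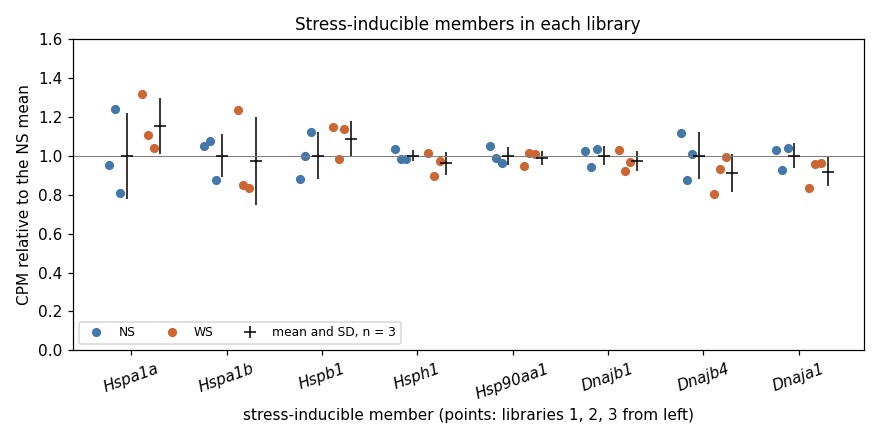
Level of the 8 stress-inducible members in each library relative to the gene's NS mean (vertical axis, from 0). Points are libraries, 3 NS and 3 WS for each gene, and the bars beside them are the mean and SD. For none of the 8 genes do the NS and WS points separate, and Hspa1a has the widest NS spread for its mean, with an SD of 1.99 CPM in NS and 1.30 CPM in WS (n = 3).

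Among the constitutive cytosolic members the values leaned below 0. Of the 10 genes on the list, 2 had a log2 fold change above 0 and 8 below, with a median of -0.07. None passed the test, 1 (Dnajb2) had all WS libraries above NS and 3 (Dnajb6, Hspa4 and Hspa8) had all WS libraries below NS.

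Hspa8 (Hsc70), the constitutive Hsp70 of the cytosol, had the highest level of all members at 2289, 2452 and 2367 CPM in NS and 2244, 2240.1 and 2231 CPM in WS. The 3 WS libraries all lay below the NS libraries, with an SD of 6.94 CPM in WS and 81.4 CPM in NS. The log2 fold change was -0.08 (SE 0.08, 95% interval -0.25 to 0.09, edgeR adjusted p = 0.99984). Hspa4, an Hsp110-type partner of Hsp70 named here for its separate groups, was at 207, 209 and 199.6 CPM in NS and at 189, 189 and 198.9 CPM in WS (log2 fold change -0.09, SE 0.07). Its highest WS and lowest NS library were less than 1 CPM apart.

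Summed over all 68 members, the level was 10158, 10081 and 9959 CPM in NS and 9817, 9721 and 9896 CPM in WS, so that every WS library lay below every NS library. Without Hspa8 the sums were 7869, 7629 and 7592 CPM in NS and 7573, 7480.5 and 7666 CPM in WS, and the groups overlapped. Hspa8, Hsp90ab1 and Hsp90aa1 together carried 49.6% of the members' CPM.

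Hspa2, an Hsp70 best known from testis, had the smallest p of the members. It was at 41.6, 42.6 and 39.5 CPM in NS and at 39.6, 35.3 and 33.6 CPM in WS. WS replicate 1 lay just above the lowest NS library and the other two below it (log2 fold change -0.19, SE 0.10). Dnajb2, a neuronal DnaJ protein, had the smallest p among the higher members, with 89.5, 90.4 and 94.7 CPM in NS and 107.6, 98.4 and 98.1 CPM in WS. All WS libraries were above NS (log2 fold change 0.15, SE 0.08, unadjusted p = 0.0754, edgeR adjusted p = 0.99984). Dnajb6, a suppressor of polyglutamine aggregation, was at 167, 160.1 and 171 CPM in NS and at 149.7, 156 and 158 CPM in WS, with every WS library below NS (log2 fold change -0.10, SE 0.07).

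Hsp90ab1, the constitutive cytosolic Hsp90, was at 1499, 1478 and 1458 CPM in NS and at 1629, 1415 and 1401 CPM in WS. The WS libraries held the highest and the 2 lowest values, and the log2 fold change was 0.003 (SE 0.08, 95% interval -0.18 to 0.19). Per kilobase of exon, the order of levels was Hspa8 at 962 CPM per kb, Hsp90ab1 at 587, Hsp90aa1 at 338, Hsp90b1 at 106.3, Dnajc6 at 66.7 and Hsph1 at 64.4 CPM per kb. On this scale the inducible Hsp70 genes were near the bottom, Hspa1a at 3.27 and Hspa1b at 2.43 CPM per kb, and Hspb7 was the lowest member at 0.127 CPM per kb.

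The 3 vesicle and endosome DnaJ genes, with a median log2 fold change of -0.02, did not pass the test either. Dnajc6 (auxilin), which recruits Hspa8 to uncoat clathrin-coated vesicles in neurons, was at 411, 416 and 363 CPM in NS and at 366, 373 and 398 CPM in WS (log2 fold change -0.06, SE 0.08). Dnajc5, the cysteine string protein of synaptic vesicles, was at 335, 337 and 302 CPM in NS and at 331, 302 and 331 CPM in WS (log2 fold change -0.02, SE 0.08). The NS and WS ranges overlapped widely in both, and Dnajc13, the remaining gene of the list, had a log2 fold change of 0.02 (SE 0.10).

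Of the 7 mitochondrial members, 2 had a log2 fold change above 0 and 5 below (median -0.02). Dnajc15, a DnaJ protein at the inner mitochondrial membrane, was at 15.6, 15.5 and 15.2 CPM in NS and at 12.4, 15.03 and 13.6 CPM in WS, all WS libraries below NS (log2 fold change -0.17, SE 0.11). Hspd1 (Hsp60) and Hspe1 (Hsp10), which form the mitochondrial chaperonin and are named here as the best known genes of the list, had log2 fold changes of 0.01 (SE 0.08) and -0.07 (SE 0.11). Their promoters face each other, and the 150 bases before the start of Hspe1 (chr1:55087998-55088147, plus strand, RefSeq on GRCm38.p6) are shown because they hold the heat shock element pattern searched here, in capitals.
Hspe1: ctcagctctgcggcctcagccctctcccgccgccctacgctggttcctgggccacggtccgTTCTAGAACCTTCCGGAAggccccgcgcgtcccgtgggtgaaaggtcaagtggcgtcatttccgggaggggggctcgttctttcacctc
The pattern was 3 units in alternating orientation with 2 bases of any kind between them, GAA, TTC and GAA or TTC, GAA and TTC, on either strand, and both forms overlap in this promoter. It occurred in the 250 bases before the start in 3 of the 55 members with a window in the table (5.45%), which were Dnajb6, Hspd1 and Hspe1, and in 139 of 27025 genes (0.514%). The matches of Hspd1 and Hspe1 are the same bases read on opposite strands, so that 1 site was counted for both genes. Of the 7 inducible members with a window, 0 held these exact letters. The search allowed no mismatch, so this 0 does not show that their promoters lack heat shock elements.

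The small heat shock proteins were the list whose values leaned above 0. Of its 7 genes 6 were tested, 5 had a log2 fold change above 0 and 1 below, with a median of 0.13, and none passed the test. Hspb8, a partner of the co-chaperone Bag3, was at 16.7, 15.1 and 19.1 CPM in NS and at 17.6, 19.6 and 18.9 CPM in WS (log2 fold change 0.14, SE 0.11). Hspb3 was one of the lowest members, at 1.14, 2.18 and 1.93 CPM in NS and at 1.90, 3.15 and 1.90 CPM in WS (log2 fold change 0.40, SE 0.31), and the log2 fold change was 0.11 without WS replicate 2. Hspb11, a subunit of the intraflagellar transport complex that carries the family's name, was at 6.87, 6.37 and 8.82 CPM in NS and at 5.92, 6.19 and 5.94 CPM in WS, with all WS libraries below NS (log2 fold change -0.29, SE 0.16), and the log2 fold change was -0.14 without NS replicate 3.

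Markers of glial and vascular cells, which can express small heat shock proteins, leaned above 0 as well. The median log2 fold change was 0.13 over 5 astrocyte markers, 0.17 over 5 endothelial markers and 0.14 over 5 pericyte markers, each with 5 of 5 above 0. It was 0.11 over 5 microglial markers with 4 above 0, and 0.03 over 6 neuronal markers with 3 above 0. Over all genes tested it was 0.01, with 7289 of 13747 above 0. None of these markers was at 0 in any library. The summed astrocyte markers were at 3537, 3723 and 3336 CPM in NS and at 3370 CPM, 3375 CPM and 4366 CPM in WS, so that WS replicate 3 alone was above the NS range. Single endothelial markers ran from a log2 fold change of 0.07 to 0.87. Of them 1 was higher in WS at an unadjusted p under 0.05 in edgeR, and 0 passed an adjusted p of 0.05. The summed endothelial markers were at 117.2 to 123.6 CPM in NS and 134.2 to 164 CPM in WS, and the summed pericyte markers at 250.3 to 253.8 CPM in NS and 258.1 to 299.9 CPM in WS, with WS replicate 3 the highest library in both. The part of these cells in the values of the small heat shock proteins was not tested.

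The remaining members named by size of p were Dnajc4 and Dnajc1. Dnajc4 was at 9.71, 11.2 and 10.4 CPM in NS and at 13.3, 12.7 and 10.9 CPM in WS (log2 fold change 0.24, SE 0.12), with WS replicate 3 inside the NS range. Dnajc1, an ER membrane DnaJ protein, was at 17.5, 17.7 and 18.6 CPM in NS and at 19.4, 19.6 and 20.5 CPM in WS, every WS library above NS (log2 fold change 0.14, SE 0.09). Its reads were divided with the overlapping Mllt10, as given above.

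Among the members of the ER, some were highest in the libraries numbered 3 of both groups. Of the 10 genes on the list, 3 had a log2 fold change above 0 and 7 below, with a median of -0.01, and none passed the test of WS against NS. Hspa5 (BiP), the Hsp70 of the ER and a standard readout of the unfolded protein response, was at 229.98, 215 and 276 CPM in NS replicates 1, 2 and 3, and at 216, 225 and 275 CPM in WS replicates 1, 2 and 3. Its log2 fold change was -0.01 (SE 0.11), yet the libraries numbered 3 stood above the other 4 in both groups, by 0.32 on the log2 scale. This was noticed after the values were seen, and Hspa5, Dnajc3 and Dnajb11 are named here for it.

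The libraries numbered 3 were above the other 4 in 3 of the 10 ER members (Hspa5, Dnajc3 and Dnajb11), in 0 of the 8 inducible and 0 of the 10 constitutive cytosolic members, and in 1079 of all 13747 genes (7.85%). Over all tested members the count was 5 of 67 (7.46%), with Dnajc19 and Hspb2 besides these, which is close to the share of all genes. In 4 members, the ER member Dnajb12 among them, the libraries numbered 3 were both below the other 4 (5.97%, against 8.04% of all genes). Dnajc3, an inhibitor of the kinase Perk and a co-chaperone of Hspa5, was at 55.9, 60.0 and 61.6 CPM in NS and at 46.4, 53.3 and 65.3 CPM in WS. In the fit with the replicate number as a term, no member passed an adjusted p of 0.05 for that term, which 1.15% of all genes did, and edgeR gave Hspa5 an unadjusted p of 0.0137 and an adjusted p of 0.352. Hsp90b1 (Grp94), the Hsp90 of the ER, was at 314, 288 and 289.6 CPM in NS and at 281, 299.9 and 328 CPM in WS (log2 fold change 0.03, SE 0.08), and its libraries numbered 3 did not stand apart together.

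Of 18 other genes of the unfolded protein response, 10 had a log2 fold change above 0 and 8 below (median 0.003), and none passed the test of WS against NS at an unadjusted p of 0.05. In 9 of them (50%, against 7.85% of all genes) both libraries numbered 3 were above the other 4. They were Atf6, Creld2, Herpud1, Hyou1, Manf, Pdia3, Pdia4, Pdia6 and Sdf2l1. The count was made after the values were seen. Manf, a secreted ER stress protein, was at 52.1, 45.9 and 62.2 CPM in NS and at 47.1, 49.1 and 53.2 CPM in WS (log2 fold change -0.10, SE 0.11). Pdia6, a disulfide isomerase, was at 97.7, 94.7 and 112.4 CPM in NS and at 91.5, 91.4 and 104.1 CPM in WS (log2 fold change -0.09, SE 0.09). These 2 had the smallest p of the list, and none of the 18 passed an adjusted p of 0.05 for the replicate number either. What the number stands for is not given by the labels, and the part of dissection, cage or batch in it was not tested.

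**Figure D4:**
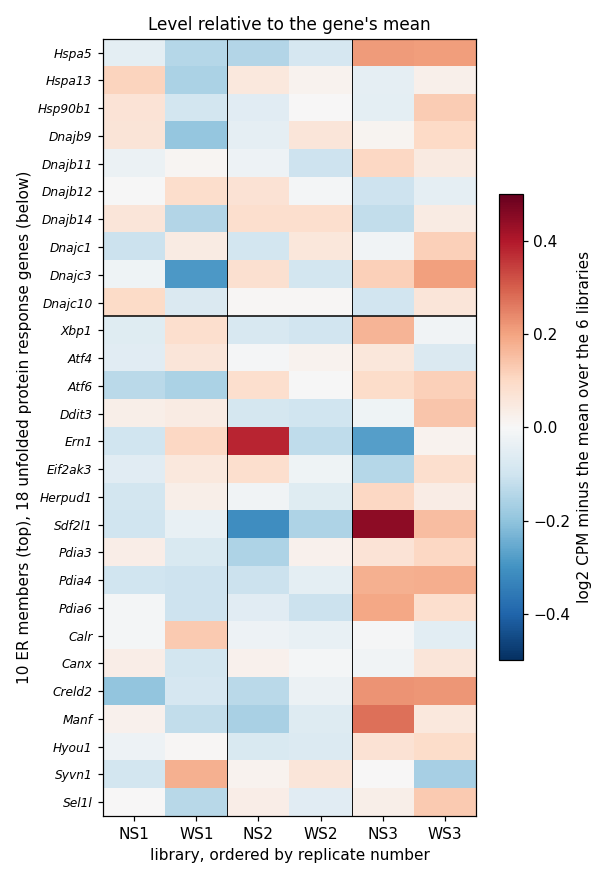
Log2 CPM of the 10 ER members (top) and 18 other unfolded protein response genes (below) in each library, minus the gene's mean over the 6 libraries (colour), with libraries ordered by replicate number (horizontal axis). Hspa5, Dnajc3 and Dnajb11 and 9 of the 18 other genes are highest in both libraries numbered 3, and no gene separates NS from WS except Dnajc1.

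Promoters of the ER members that hold the ER stress element are shown, and its part in the levels of the libraries numbered 3 was not tested. The ER stress element, CCAAT and CCACG with 9 bases of any kind between them on either strand, was searched in the 250 bases before the start. It occurred in 35 of 27025 genes (0.13%) and in 3 of the 55 members with a window (5.45%), which were Hspa5, Hsp90b1 and Dnajc3, all of the ER list. Of the other unfolded protein response genes, 5 of 15 with a window held it (Calr, Canx, Creld2, Pdia6 and Syvn1). Of the genes with the element, Hspa5, Dnajc3, Creld2 and Pdia6 were highest in both libraries numbered 3, while Hsp90b1, Calr, Canx and Syvn1 were not. Dnajb11, Herpud1, Pdia3, Pdia4 and Sdf2l1 were highest there and had a window without the element. The sequences are from RefSeq on GRCm38.p6, for Hspa5 from chr2:34771940-34772089 on the plus strand, for Dnajc3 from chr14:118937782-118937931 on the plus strand and for Hsp90b1 from chr10:86705445-86705694 on the minus strand, with the matches in capitals.
Hspa5: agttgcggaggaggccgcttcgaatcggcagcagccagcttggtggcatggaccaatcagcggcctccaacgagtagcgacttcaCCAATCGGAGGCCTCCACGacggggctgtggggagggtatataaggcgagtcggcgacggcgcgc
Dnajc3: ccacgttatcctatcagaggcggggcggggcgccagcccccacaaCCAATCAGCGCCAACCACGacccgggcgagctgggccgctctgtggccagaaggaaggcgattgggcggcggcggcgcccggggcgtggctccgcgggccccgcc
Hsp90b1: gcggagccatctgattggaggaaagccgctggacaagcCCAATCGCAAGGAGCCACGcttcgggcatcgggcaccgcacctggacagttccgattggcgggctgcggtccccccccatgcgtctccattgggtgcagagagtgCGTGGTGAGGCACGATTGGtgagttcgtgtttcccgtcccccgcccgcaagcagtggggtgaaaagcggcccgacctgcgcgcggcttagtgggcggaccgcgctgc
Hsp90b1 held the letters at 2 places, 1 on each strand.

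No other gene of the chaperone network passed the test. A list of 24 genes held Bag proteins, Hsp70 and Hsp90 adaptors, immunophilins and chaperonin subunits, and the chaperones Cryab and Serpinh1. Of these 24 genes, 11 had a log2 fold change above 0 and 13 below, with a median of -0.01. None passed the test at an unadjusted p of 0.05, and 1 (Bag3) had all WS libraries above NS. Bag3, a stress-inducible exchange factor that links Hsp70 to autophagy, was at 10.4, 10.8 and 10.4 CPM in NS and at 11.5, 13.6 and 12.1 CPM in WS (log2 fold change 0.23, SE 0.12, edgeR adjusted p = 0.99984). Bag5, an exchange factor of Hsp70 in neurons, was at 40.3, 36.1 and 44.4 CPM in NS and at 34.8, 37.3 and 33.5 CPM in WS, with overlapping groups (log2 fold change -0.20, SE 0.10).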

How the data were processed

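Total RNA of S1 cortex was sequenced by the authors, who per the methods ran a DNBseq platform, filtered out rRNA and poor reads and mapped with HISAT2. The submitters' processing notes name mm10, and the counting tool is not given in the sources used here. The authors deposited estimated counts as 1 mean and 1 SD per gene over all 6 libraries, not scaled for depth. The deposited score of a library is a z-score, which the authors normalized per gene by taking the count less this mean and dividing by this SD. The z-score column for WS replicate 3 carries an extra letter and was assigned through the WS mean of the file, which contains it. Columns of the authors' own comparison (a log2 fold change, p-values and an FDR), and a second table that holds only these and the same mean, were not used. Every per-sample column served here.

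Counts per library were computed back as mean plus z-score times SD and rounded. Deposited counts had been foreseen in the design, so the count test was applied to these recovered counts. All genes were fitted with edgeR 4.0.16 (TMM, filterByExpr, quasi-likelihood F test) in R 4.3.3, with Benjamini-Hochberg adjustment over 13747 genes. The scripts were tested on simulated data. Exact permutation tests were run with SciPy 1.17.1 in Python 3.11.15. Intervals of single values cover the spread between libraries, and with the totals per library given in the report, genes of under 10 counts carry little information. Alternatives were DESeq2 1.42.0, other normalizations and filters, the replicate number as a block and each library left out. Chosen after the data were seen were the sum of Hspa1a, Hspa1b and Hspa1l, the test of the replicate number and the direction within same-numbered pairs.

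The labels number the samples 1 to 3 in each group. Deviations from the group means of same-numbered NS and WS libraries correlated with r = 0.342, 0.228 and 0.124 across the 13747 genes. The genes are not independent replicates. Between differently numbered libraries r ran from -0.257 to 0.0385. Deviations sum to 0 within a group, so these r values are not independent of one another. The main fit, its intervals and its p-values ignore any pairing, and the number was a block only in an alternative. The labels do not say what a number shares.

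Named are the inducible members, the heat shock factors, the 6 members with the highest mean CPM, the 5 with the smallest p in each direction, and of each list of other genes the 2 with the smallest p. Other names are said to be chosen otherwise. The members and lists were chosen with earlier results of these data known. The constitutive cytosolic list held Hspa8, Hspa2, Hspa4, Hspa4l, Hspa14, Hsp90ab1, Dnaja2, Dnajb2, Dnajb6 and Dnajc7, the ER list Hspa5, Hspa13, Hsp90b1, Dnajb9, Dnajb11, Dnajb12, Dnajb14, Dnajc1, Dnajc3 and Dnajc10, and the mitochondrial list Hspa9, Hspd1, Hspe1, Dnaja3, Dnajc11, Dnajc15 and Dnajc19. Gene models and exon lengths came from GENCODE M21, which held all 68 members, and promoters from RefSeq on GRCm38.p6, which held 55. Marker lists held Snap25, Syt1, Slc17a7, Gad1, Gad2 and Rbfox3 for neurons, Slc1a2, Slc1a3, Aqp4, Aldh1l1 and Gfap for astrocytes, Pecam1, Cldn5, Cdh5, Flt1 and Tek for endothelial cells, and Pdgfrb, Rgs5, Kcnj8, Vtn and Cspg4 for pericytes. The other marker lists held Cx3cr1, P2ry12, Tmem119, Csf1r and Aif1 for microglia, and Ttr, Kl, Folr1, Clic6 and Kcnj13 for choroid plexus. Some planned marker lists are not reported here, so the account of marker genes is partial.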

Additional observations from a re-analysis of the deposited data

How the results depend on the processing

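In every alternative the number of members with an adjusted p under 0.05 was 0. At an unadjusted p of 0.05 the number of members higher in WS was 0 with all libraries and ran from 0 to 1 when single libraries were left out, with Hspa1a at a log2 fold change of 0.39 without NS replicate 2 and Dnajc4 at 0.32 without WS replicate 3. The number lower ran likewise from 0 to 1, with Hspa2 at -0.26 without WS replicate 1 and Dnajc3 at -0.25 without WS replicate 3. The lowest adjusted p of a named member under any alternative was 0.884 and the highest 0.99998. The replicate block changed no call, with 0 members at an unadjusted p of 0.05, and among the named members it turned only Hsp90ab1, from 0.0031 to -0.0003. Of 288 log2 fold changes of the 24 named members under alternatives, 272 kept their direction and 16, in 7 genes, did not. Over the libraries left out in turn these 7 ran from -0.0643 to 0.0207 for Dnajc5, from -0.0704 to 0.0543 for Hsf1, from -0.1607 to 0.0531 for Hsf2, from -0.0439 to 0.0213 for Hsp90aa1, from -0.07 to 0.0417 for Hsp90ab1, from -0.0346 to 0.0774 for Hsp90b1 and from -0.2465 to 0.064 for Hspa1b. Counting these, 18 of the 24 named members moved by over 1.5 times when some library was left out, among them Hspa1a (0.0736 to 0.3916), Hspb1 (0.0382 to 0.2123), Hspb3 (0.1075 to 0.5925), Hspb11 (-0.3834 to -0.1378) and Dnajb4 (-0.2234 to -0.0497). Which library property turned them was not tested. The median log2 fold change of all genes stayed between 0.0018 and 0.0103 under the alternatives. With single libraries left out, the median ran from -0.0358 to 0.012 over all members, where it was above 0 only without NS replicate 1, from -0.0576 to -0.0112 over the inducible and from -0.0813 to -0.0621 over the constitutive cytosolic members. Depth limits Hspb2, Hspb3, Hspb7, Dnajb3 and Dnajb13.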
